A study of Danio rerio with 14 samples.

Results

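Ventricles of zebrafish carrying any of the 3 TMEM43 transgenes were compared with ventricles of non-transgenic fish (NTG), to describe what the lines have in common whichever form of TMEM43 they express. The comparison used every library of the series, 11 transgenic and 3 NTG of 14 in all, and the groups came from the sample labels alone. TMEM43-WT contributed 4 of the transgenic libraries, TMEM43-P111L 3 and TMEM43-S358L 4. The change common to the lines was taken as the mean of their log2 fold changes against NTG, each line with equal weight, with age group held constant.

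Each transgene places human TMEM43 fused to eGFP behind the cardiomyocyte promoter of myl7, so that only heart muscle cells should express it, and was inserted with the Tol2 transposon. TMEM43-WT carries the unchanged protein, TMEM43-P111L and TMEM43-S358L each carry the amino acid exchange in their name. Each line is 1 named transgene allele, of which only the offspring of crosses within the line were used, and ventricles were pooled to make a library, so that a replicate is a pool and not an animal. The labels give TL1 as the strain of all libraries and 5 months as the age for 2 NTG, 1 TMEM43-WT, 1 TMEM43-P111L and 3 TMEM43-S358L libraries. For the other libraries, 1 NTG, 3 TMEM43-WT, 2 TMEM43-P111L and 1 TMEM43-S358L, they give 18 to 21 months, whereas the text of the study speaks of 5-month-old fish. All 3 lines differ from NTG both by a transgene and by their descent from injected founders, so these factors cannot be told apart in any value below.

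TMEM43 is a protein of the inner nuclear membrane and the endoplasmic reticulum that binds lamins and emerin, and some of its variants cause arrhythmogenic cardiomyopathy in humans. The kinase complex mTORC1 senses amino acids and growth factors at the lysosome; when active it favours ribosome production and translation and holds back autophagy. The adult zebrafish ventricle consists mainly of cardiomyocytes, which burn fatty acids, together with endocardium, epicardium, fibroblasts and blood cells.

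The depth was 20.6 to 32.4 M reads per library, with a median of 22.4 M. Of 39289 features, 13405 held split reads, shown by fractional values, and these carried 77.6% of all reads, so that values of near-identical gene copies are uncertain. Both the lowest scaling factor, 0.825 in replicate 1, and the highest, 1.138 in replicate 6, belonged to TMEM43-WT. The cardiac myosin light chain gene myl7 stood at 13707 to 18954 CPM (counts per 1 M reads, scaled by TMM) in NTG and 10342 to 16401 in the transgenic libraries. None of 20 cardiomyocyte markers was called, beside 12.4% of all tested genes. Their median log2 fold change was -0.06, with 9 positive and 11 negative values. DESeq2 called 0 of them higher and 3 lower, beside 8.07% and 9.45% of all genes. Of the 20, gata4, tbx5a and zgc:86725 had low mean levels of 1.23, 5.26 and 1.14 CPM. The table holds no human gene, so tmem43 here is the fish's own copy. Its values were 11.7, 13 and 18.7 CPM in NTG and 5.91 to 17.6 CPM (median 13.2) in the transgenic libraries (-0.21 ± 0.24 on the log2 scale with its SE, adjusted p = 0.620). The transgenes themselves were therefore not measured in these data. By quantitative PCR of adult ventricles the study reported less transgene mRNA in TMEM43-P111L than in TMEM43-WT, and least in TMEM43-S358L. It also reported slightly less of the fish's own tmem43 in all lines than in NTG. The mean of the lines thus does not stand for 1 level of transgene. The elongation factor gene eef1a1l1, the reference of the study's quantitative PCR, stood at 9033 to 11220.0 CPM in NTG and 7223 to 12709 CPM in the transgenic libraries (0.01 ± 0.17, adjusted p = 0.988). NTG replicate 3 lay far above the other NTG libraries for some genes, among them ckmb and rnf207a, and leaving it out reduced the calls more than leaving out any other library.

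Calls required an adjusted p below 0.05 in edgeR's quasi-likelihood test together with a change of 0.05 or more, in either direction, on the log2 scale. In the transgenic ventricles 880 genes rose and 1279 fell, of 17439 tested, that is 5.05% and 7.33%, or 12.4% together. The median log2 fold change was 1.04 among those that rose (quartiles 0.74 and 1.57) and -1.24 among those that fell (quartiles -1.84 and -0.88), while over all tested genes it was -0.01. Changes of at least 4-fold were found in 151 of the former and 265 of the latter. For 1045 called genes (5.99% of those tested) the 11 transgenic and 3 NTG libraries did not overlap, 463 higher (2.65%) and 582 lower (3.34%). The same genes would not all be called with fewer NTG libraries: 1109 genes were called without NTG replicate 3, 1451 without replicate 4 and 1591 without replicate 2, and 585 genes (222 higher, 363 lower) were called whichever of the 14 libraries was left out. The p-values measure the spread between pools of fish. In what follows, a value with ± in brackets is the log2 fold change of the transgenic against the NTG libraries with its SE.

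Measured against the same 3 NTG libraries, each line alone gave a count of its own. TMEM43-WT had 1263 (7.24%; 653 higher, 3.74%, and 610 lower, 3.5%). For TMEM43-P111L there were 1195 (6.85%; 535 higher, 3.07%, and 660 lower, 3.78%) and for TMEM43-S358L 1326 (7.6%; 605 higher, 3.47%, and 721 lower, 4.13%). These comparisons share their controls. A test among the lines, which does not use NTG, called 384 genes (2.2%). It called 123 of the 2159 genes of the common change (5.7%) and 261 of the 15280 others (1.71%), a larger share among the former. Of the 2159 genes, 1694 (78.5%) had an unadjusted p of 0.05 or more in this test. With few pools per line, a missing call does not show that the lines were alike.

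Increases that were large in every line were picked by the line with the smallest change, among genes whose libraries did not overlap. The rule ranks by size and does not ask that the lines be alike. The largest was cacna1aa (chromosome 3, 33768959 to 33903004 of GRCz11), which encodes the pore of a voltage-gated calcium channel known from nerve terminals. It was at 0.0916, 0.233 and 0.419 CPM in NTG and at 1.65 to 23.7 CPM (median 9.39) in the transgenic libraries, a rise of 5.1 ± 0.64 (SE) on the log2 scale (adjusted p = 0.000415), with 17 reads in all NTG libraries together and 2855 in the transgenic libraries, a ratio of 43.7 per read sequenced (exact 95% interval for counting error, 27.2 to 75.1). T-cadherin, a cadherin anchored to the membrane by lipid, is encoded by cdh13 (chromosome 18, 13700770 to 14133191). Its values of 9.58, 28.5 and 24.3 CPM in NTG stood against 60.1 to 133 CPM (median 98), and its log2 fold change was 2.2 ± 0.27 (adjusted p = 0.000241). The Z-disc protein gene synpo2la (chromosome 13, 22249910 to 22263477) rose from 3.44, 5.64 and 3.31 CPM to 15.9 to 31 CPM (median 23.1), a 5.37-fold increase (log2 fold change 2.42 ± 0.28, adjusted p = 0.000119). That the groups do not overlap was part of the rule. For synpo2la the log2 fold changes were 2.51 (TMEM43-WT), 2.23 (TMEM43-P111L) and 2.53 (TMEM43-S358L).

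The other increases picked by this rule ran from 2.87-fold in syncripl to 4.79-fold in dhh. The hedgehog ligand gene dhh was at 0.871, 2.42 and 1.84 CPM in NTG and 3.34 to 19.1 CPM (median 6.83) in the transgenic libraries (log2 fold change 2.26 ± 0.49, adjusted p = 0.00997), with its 2 highest libraries in TMEM43-WT. The kirrelb gene, for an adhesion protein of the immunoglobulin family, rose by 2.02 ± 0.41 (adjusted p = 0.00632) from 3.48, 0.932 and 2.13 CPM to 4.51 to 12.3 CPM. Genes that act on RNA were among them: ago3b, for an Argonaute protein that binds small RNAs, had 6.05, 3.17 and 2.55 CPM in NTG and 8.52 to 24.1 CPM in the transgenic libraries (log2 fold change 2.04 ± 0.3), and syncripl, for an RNA-binding protein, 3.16, 3.54 and 4.81 and 6.91 to 16.4 CPM (1.52 ± 0.26). A member of the salt-inducible kinases, sik2a, had a log2 fold change of 1.88 ± 0.31 and cadpsb, which primes secretory vesicles, one of 1.73 ± 0.26. Their adjusted p-values were 0.00220 and 0.00102. None of these calls was lost when any 1 library was left out.

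Decreases that were large in every line were picked in the same way. The first by the same rule was vmo1a (chromosome 3, 5403848 to 5413019), the homolog of an egg membrane protein, at 129.6, 128 and 118 CPM in NTG and 3.3 to 13.9 CPM (median 6.63) in the transgenic libraries, which is -4.18 ± 0.33 on the log2 scale (adjusted p = 1.65e-05). A gene for muscle creatine kinase, which buffers ATP, is ckmb (chromosome 15, 23643718 to 23647073). It stood at 381, 1214 and 287 CPM in NTG against 35.4 to 115 CPM (median 52.6). Its log2 fold change was -3.52 ± 0.37 (adjusted p = 0.000145) and -2.65 without NTG replicate 3. The more abundant gene ckma of the same enzyme was not called. It was at 3419 to 4880 CPM in NTG and 3130 to 6569 CPM in the transgenic libraries (log2 fold change 0.02). The annexin gene anxa6, for a calcium-dependent membrane-binding protein, fell from 393, 561 and 312 CPM to 1.32 to 90.9 CPM (median 3.43, log2 fold change -4.95 ± 0.89, adjusted p = 0.00619). Its transgenic libraries were far apart: 53.5, 27, 15.9 and 90.9 CPM in TMEM43-WT, 1.43, 1.52 and 76.4 CPM in TMEM43-P111L and 2.27, 3.43, 2.2 and 1.32 CPM in TMEM43-S358L. Without TMEM43-P111L replicate 4, the library with the highest of the TMEM43-P111L values, the log2 fold change was -6.18.

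The other genes that fell by this rule have varied roles. The gene bnip4 (chromosome 17, 20231817 to 20236284) belongs to the BNIP3 family, whose mammalian members mark mitochondria for autophagy; it fell from 30.7, 40.3 and 26.5 CPM to 1.75 to 10.3 CPM (median 4.36), or -2.95 ± 0.38 on the log2 scale (adjusted p = 0.000603). The mitochondrial folate carrier gene slc25a32a was at 18.2, 25.5 and 13.9 CPM in NTG and 0.476 to 9.93 CPM in the transgenic libraries (log2 fold change -2.89 ± 0.49). For doc2b, a calcium sensor of vesicle release, the values were 77.4, 76.5 and 28.8 and 3.75 to 16.1 CPM, and the log2 fold change -2.62 ± 0.25 (adjusted p = 2.17e-05). The test among lines gave adjusted p = 0.0145 for doc2b: its decrease differed in size, with -1.81 (TMEM43-WT), -2.42 (TMEM43-P111L) and -3.64 (TMEM43-S358L). For the ubiquitin ligase adaptor gene klhl24b the log2 fold change was -2.73 ± 0.59, and -3.35 without NTG replicate 4. The cartilage matrix protein gene cilp, also active in heart fibroblasts, had 92.6, 39.4 and 56.8 CPM in NTG and 7.17 to 36.4 CPM in the transgenic libraries (-2.16 ± 0.33). The RING finger protein gene rnf207a had 16.6, 75.2 and 20.0 CPM in NTG, where replicate 3 was highest, and 0.295 to 14.9 CPM in the transgenic libraries. Its log2 fold change was -3.49 ± 0.5, and -2.73 without NTG replicate 3. The gene fam234a, described below with its neighbours, completes the set.

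**Figure D1:**
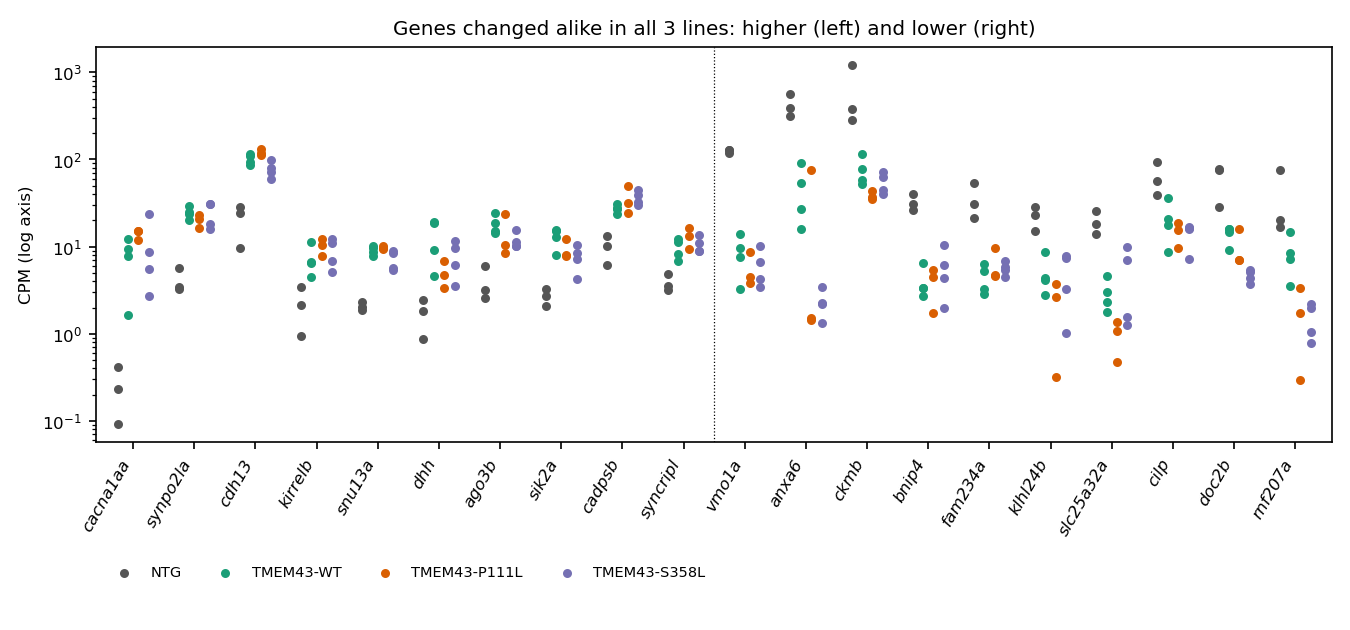
CPM on a log axis of 10 genes that rose (left) and 10 that fell (right), 1 point per library, coloured by group. In the title, alike means of the same sign in all 3 lines, not of the same size. In each direction they are the genes with the largest change in the line where it was smallest. By the rule that chose the genes, the 11 transgenic points lie on one side of the 3 NTG points; for anxa6, 2 of 3 TMEM43-P111L libraries and the TMEM43-S358L libraries lie far below the rest.

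Of 106 ribosome biogenesis genes, 23 rose, 2 fell and 81 were not called, against 5.05% and 7.33% of all tested genes that rose and fell, and 86 of the 106 had a positive log2 fold change (median 0.32). The gene nop58, for a core protein of the box C/D snoRNPs that methylate ribosomal RNA, was at 15.2, 14.5 and 30.0 CPM in NTG and 34.7 to 75.4 CPM (median 49.5) in the transgenic libraries. It rose by 1.35 ± 0.21 (adjusted p = 0.00143). The pseudouridine synthase gene dkc1 of the H/ACA snoRNPs rose from 8.57, 11.2 and 22.6 CPM to 28.9 to 49.4 CPM (log2 fold change 1.35 ± 0.24, adjusted p = 0.00331). The snoRNP chaperone gene nolc1 had 13.1, 19 and 25.9 CPM in NTG and 27.3 to 51.8 CPM in the transgenic libraries (1.11 ± 0.18), and snu13a, which binds the kink-turn of box C/D RNAs, 2.29, 2.0 and 1.88 and 5.34 to 10.2 CPM (2.08 ± 0.24). These 4 genes showed no overlap between groups. In all, 6 of the 23 genes of the list that rose showed none, beside 463 of all 880 genes that rose (2.65% of those tested). NTG replicate 4, from older fish, was the highest NTG library for nop58, dkc1 and nolc1. Further members that rose were gar1, nop2, nop56, npm1a, fbl, rrp9, wdr43, rrs1, nol6 and ncl, and pop5 and tsr3 fell.

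The number of these calls depended on the NTG libraries. Without NTG replicate 3, 6 of the 106 genes rose and none fell, and 2.21% of all genes rose in that fit; without replicate 2, 10 rose (3.53% of all genes), and without replicate 4, 27 rose (3.69%). The median of the list was between 0.28 and 0.5 when any 1 library was left out. Within the libraries of 5 months it was 0.47 and within those of 18 to 21 months 0.095. Few genes of any kind were called within 1 age group alone. By contrast, none of 81 genes of cytosolic ribosomal proteins was called, beside 12.4% of all tested genes. Their median was 0.02, with 0.28 at 5 months and -0.37 at 18 to 21 months.

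Of 24 genes of cytosolic aminoacyl-tRNA synthetases, which load amino acids onto tRNAs, and of their scaffold proteins, 10 rose, none fell and 14 were not called, and 22 had positive values (median 0.47). Over all tested genes 5.05% rose and 7.33% fell. The methionyl-tRNA synthetase gene mars was at 14, 15.7 and 16.4 CPM in NTG and 23.8 to 47.1 CPM (median 35.2) in the transgenic libraries, a rise of 1.18 ± 0.2 on the log2 scale (adjusted p = 0.00271). For yars, the tyrosyl enzyme, the values were 19.8, 15.2 and 19.5 and 27.8 to 50.4 CPM (1.09 ± 0.19), and for qars, the glutaminyl enzyme, 15, 13.7 and 16.7 and 17.9 to 33.3 CPM (0.96 ± 0.17). The scaffold gene aimp1 rose from 69.2, 66.3 and 95.3 CPM to 99.9 to 222 CPM (1.03 ± 0.18). In all 4 genes the groups did not overlap. Of the 10 that rose, 8 showed no overlap, beside 463 of all 880 genes that rose. For mars the log2 fold changes, all against the same NTG libraries, were 0.99 (TMEM43-WT), 1.39 (TMEM43-P111L) and 1.16 (TMEM43-S358L). The genes sars, tars, hars, vars, larsb and rars also rose, by 0.55 to 0.91. Without NTG replicate 2 or without NTG replicate 3, 6 of the 24 rose, with 3.53% and 2.21% of all genes in those fits. The median stayed between 0.4 and 0.66 whichever library was left out. Within the libraries of 5 months the median was 0.63 and within those of 18 to 21 months 0.26. Few genes of any kind were called within 1 age group alone.

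Of 64 genes of nuclear pores and transport receptors 17 rose, 1, ranbp9, fell and 46 were not called, with a median of 0.37 and 10 negative values. Among all tested genes 5.05% rose and 7.33% fell. The scaffold nucleoporin gene nup93 was at 14.2, 17.5 and 16.4 CPM in NTG and 21.1 to 44.3 CPM in the transgenic libraries (1.04 ± 0.19, adjusted p = 0.00395). The membrane nucleoporin gene pom121 rose by 0.9 ± 0.16 from 9.62, 9.13 and 13.5 CPM to 13.1 to 29.9 CPM; its groups overlapped slightly, since the lowest transgenic library was below the highest NTG library. The exporter of importin alpha, cse1l, had 43.8, 32.1 and 47.9 and 56.8 to 85.3 CPM (0.77 ± 0.15) and the importin gene ipo9 16.7, 14.9 and 14.9 and 20.5 to 30.0 CPM (0.74 ± 0.15). Other members that rose include nup153, nup188, nup133, nup50, nup85, kpna1, kpna3, kpnb1, xpo4 and rcc1. Without NTG replicate 3, 8 of the 64 rose (2.21% of all genes in that fit). The median was 0.44 within the libraries of 5 months and 0.3 within those of 18 to 21 months. Few genes of any kind were called within 1 age group alone. Of 23 tested genes of the nuclear envelope, where TMEM43 resides, 1 rose and none fell, beside 5.05% and 7.33% of all genes: lmnb1, for a lamin of the nuclear lamina, was at 14.3, 18 and 15.3 CPM in NTG and 15.8 to 41.8 CPM (median 28.6) in the transgenic libraries (0.94 ± 0.17, adjusted p = 0.00395), and the median was -0.11.

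**Figure D2:**
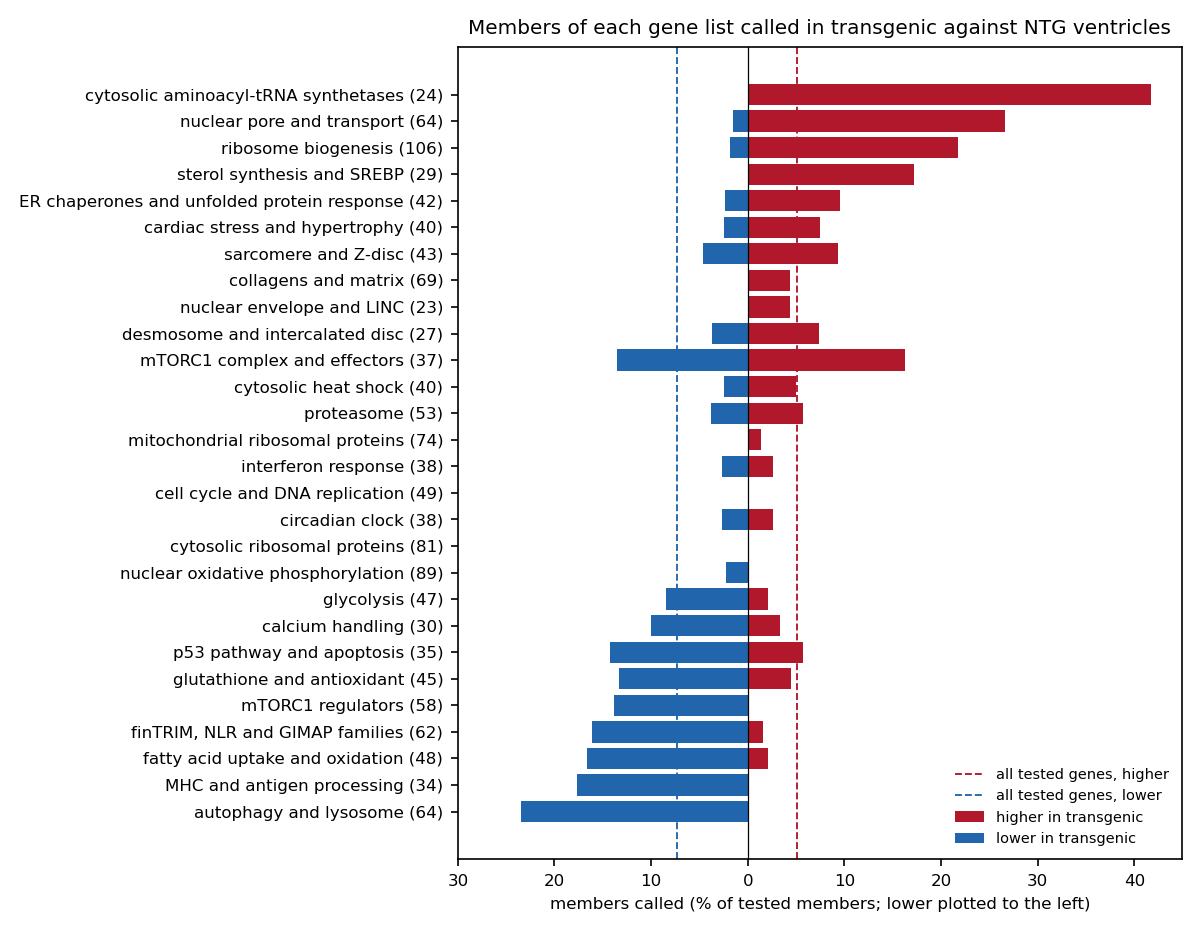
Share of the tested members of 28 gene lists that were called higher (red, right) or lower (blue, left) in transgenic than in NTG ventricles; numbers in brackets are tested members, and dashed lines mark the share among all tested genes (5.05% and 7.33%). Aminoacyl-tRNA synthetases, nuclear transport and ribosome biogenesis extend furthest to the right, autophagy and lysosome genes furthest to the left.

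Of 37 genes of mTORC1 itself and its effectors 6 rose and 5 fell, beside 5.05% and 7.33% of all genes. Among those that rose, eif4g1a, the scaffold of the cap-binding complex, was at 50.2, 42.2 and 76.4 CPM in NTG and 98.3 to 157 CPM in the transgenic libraries (1.15 ± 0.19, adjusted p = 0.00222). The cap-binding protein gene eif4e1c had 20.4, 15.7 and 38.4 and 46.4 to 80.4 CPM (1.39 ± 0.24), and the S6 kinase genes rps6kb1a and rps6kb1b, eif4bb and akt3b rose too. Among those that fell, the translation repressor gene eif4ebp3 went from 29.3, 22.2 and 15.5 CPM to 5.27 to 11.4 CPM (-1.49 ± 0.26, adjusted p = 0.00273), and akt1s1, whose product PRAS40 holds back mTORC1, from 58.7, 57.9 and 50.6 CPM to 21.9 to 47.3 CPM (-0.88 ± 0.17). The subunit gene mlst8, the kinase gene pdpk1a and the repressor gene eif4ebp3l also fell. Without NTG replicate 3, 2 of the 37 rose and 4 fell, with 2.21% and 3.94% of all genes in that fit.

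Among genes listed as regulators of mTORC1 all calls were decreases, and the list does not separate genes by how they act on the complex. Of 58 genes that regulate the complex 8 fell and none rose, beside 7.33% of all genes that fell. In all 8 the libraries of the groups did not overlap, beside 582 of all 1279 genes that fell (3.34% of those tested). The kinase gene ulk1a, which starts autophagy and is a target of mTORC1, was at 74.7, 45.7 and 39.9 CPM in NTG and 9.39 to 26.8 CPM (median 13) in the transgenic libraries, or -1.76 ± 0.21 on the log2 scale (adjusted p = 0.000157). Folliculin, encoded by flcn, acts on the Rag GTPases at the lysosome; its values of 22.6, 28.7 and 26.5 and 4.66 to 13.3 CPM gave -1.47 ± 0.24. The GATOR2 subunit gene wdr24 fell from 11.5, 11.3 and 11 CPM to 2.1 to 6.51 CPM (-1.61 ± 0.28), and gatsl2, a relative of the arginine sensors, from 81.8, 63 and 49.8 CPM to 26 to 39 CPM (-1.0 ± 0.16). The GATOR1 gene nprl3, tsc1b and tbc1d7 of the TSC complex and the insulin receptor gene insra were the others. The count hardly depended on the library left out, at 7 to 10 of 58, while 3.94% to 8% of all genes fell in those fits. The median of the list, -0.22, was smaller in size than any of the changes given here.

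Autophagy and lysosome genes had, with all 14 libraries, the highest share of decreases of the 39 lists examined. Of 64, 15 fell and none rose, beside 7.33% and 5.05% of all genes. Of the 15, 11 showed no overlap, beside 582 of all 1279 genes that fell (3.34% of those tested). Both genes of the lipid scramblase that feeds the growing autophagosome fell. For atg9a the values were 40.0, 43.5 and 27 CPM in NTG and 7.74 to 20.1 CPM in the transgenic libraries (-1.42 ± 0.24, adjusted p = 0.00255), and for atg9b 22.5, 25.9 and 13 and 3.36 to 11.7 CPM (-1.75 ± 0.28). The gene listed as zgc:113944, which RefSeq names atg14, a subunit of the lipid kinase complex that starts autophagosomes, fell from 20.2, 22.8 and 12.1 CPM to 2.49 to 10.46 CPM (-1.71 ± 0.33). Members of the ULK1 complex (atg13, atg101, rb1cc1), wipi2, map1lc3b, bnip3 and, among lysosomal genes, ctsla, cln3 and grnb fell too, in addition to bnip4 above. The summed level of the 64 genes was 2572 to 3167 CPM in NTG and 1984 to 2602 CPM in the transgenic libraries. Without NTG replicate 2 or without NTG replicate 3, 8 of the 64 fell, with 5.29% and 3.94% of all genes in those fits. The median, -0.35, ran from -0.41 to -0.28 over the libraries left out.

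**Figure D3:**
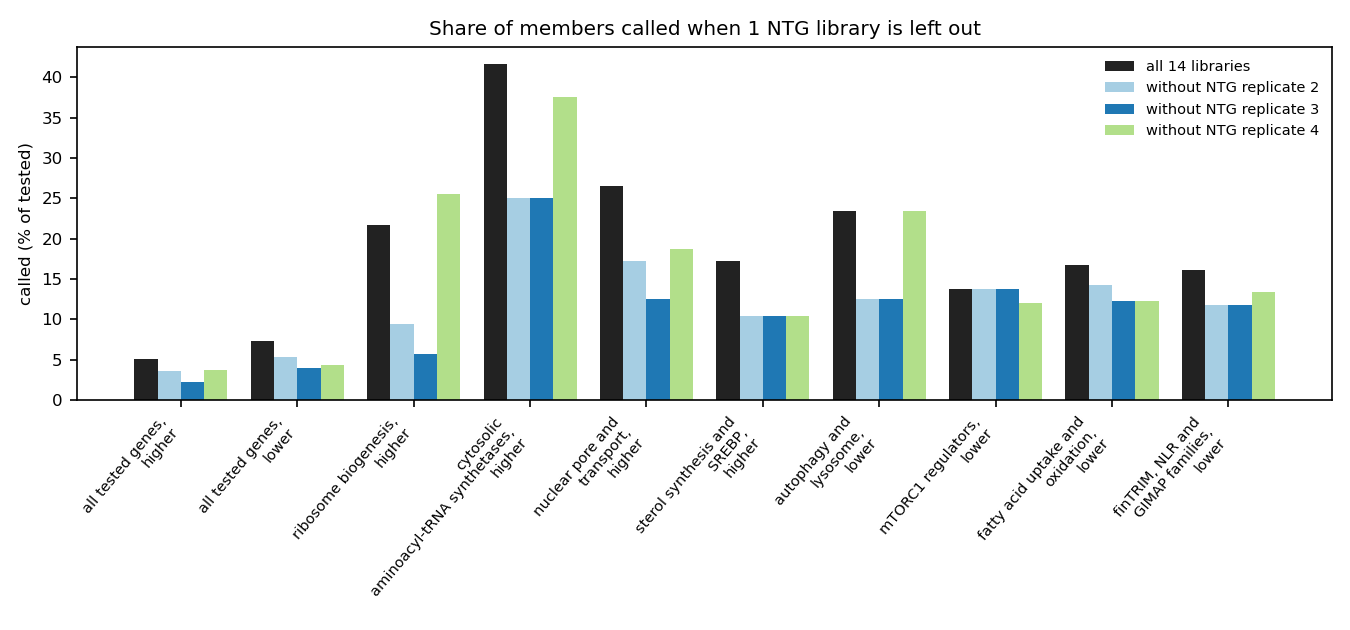
Percentage of tested genes called, for all genes and for 8 lists in the direction named, with all 14 libraries (black) and without NTG replicate 2, 3 or 4 (colours). Ribosome biogenesis drops from 23 to 6 genes without replicate 3, whereas the regulators of mTORC1 stay at 7 or 8 genes without any of the NTG libraries.

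Of 42 genes of the endoplasmic reticulum stress response 4 rose and 1, the sensor kinase gene eif2ak3, fell, beside 5.05% and 7.33% of all genes. The chaperone gene hyou1 was at 21.7, 21.4 and 23 CPM in NTG and 27.4 to 58.1 CPM in the transgenic libraries (0.93 ± 0.16, adjusted p = 0.00297), the co-chaperone gene dnajb11 at 17.3, 13.5 and 16.8 and 21.7 to 42 CPM (0.98 ± 0.17). The secreted chaperone gene manf rose by 1.16 ± 0.21 and asns, for asparagine synthetase, by 1.24 ± 0.22 from 6.05, 4.94 and 4.35 CPM to 7.3 to 18 CPM. All 4 calls were kept whichever library was left out, and without NTG replicate 4 the number rose to 8 (3.69% of all genes in that fit). Cytosolic heat shock genes leaned upwards with a median of 0.4, but only 2 of 40 rose and 1 fell, beside 5.05% and 7.33% of all genes. The median was 0.95 within 5 months and -0.22 within 18 to 21 months. In the older group NTG replicate 4 is the only control, so age and this library cannot be told apart. Without NTG replicate 4, 10 of the 40 rose (3.69% of all genes in that fit). The chaperone gene hspa4a (70.6, 38.7 and 94.1 CPM in NTG, 106 to 337 CPM in the transgenic libraries, 1.5 ± 0.39) was not called without NTG replicate 2 (adjusted p = 0.0912) or 3 (adjusted p = 0.0968), and its log2 fold change was 2.2 without replicate 4. The heat shock factor gene hsf2 had 16.3, 16.8 and 13.4 and 2.58 to 15.4 CPM (-1.1 ± 0.28) and was not called without NTG replicate 4, where its log2 fold change was -0.52.

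Of 29 sterol genes 5 rose and none fell, beside 5.05% and 7.33% of all genes. The 5 showed no overlap between groups, beside 463 of all 880 genes that rose (2.65% of those tested). The master regulator gene srebf2 was at 22.7, 13.7 and 22.9 CPM in NTG and 35.3 to 75 CPM (median 46.2) in the transgenic libraries, a rise of 1.24 ± 0.19 (adjusted p = 0.00143). The isomerase gene ebp had 0.871, 2.1 and 1.8 and 2.94 to 8.74 CPM (1.64 ± 0.37). The low-density lipoprotein receptor gene ldlrb rose by 1.41 ± 0.37 (from 4.4, 1.26 and 4.02 CPM to 5.36 to 20.4 CPM), but not without NTG replicate 3 (adjusted p = 0.0764). The gene of the rate-limiting reductase hmgcra had 2 reads in all NTG libraries together and 140 in the transgenic libraries, a ratio of 18.2 per read sequenced with an exact 95% interval of 4.95 to 152 that, like those below, covers counting error only. It was not called without NTG replicate 2 (adjusted p = 0.0543) or 4 (adjusted p = 0.0517), and without replicate 3 its fitted log2 change was 6.65 in place of 4.17. Without any one of the NTG libraries 3 of the 29 sterol genes were called, all higher. Of all genes 3.53%, 2.21% and 3.69% rose without NTG replicate 2, 3 and 4. The summed level of all 29 was 165 to 171 CPM in NTG and 185 to 309 CPM in the transgenic libraries. The regulator srebf2 lies in the first 5 Mb of chromosome 3, a stretch with many calls, as given below.

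Of 48 genes of fatty acid uptake and oxidation 8 fell and 1, acsl4a, rose, beside 7.33% and 5.05% of all genes, and 37 had negative values (median -0.27). The uptake genes slc27a1b, for a fatty acid transport protein, and cd36, for the scavenger receptor that takes up long-chain fatty acids, were low in all groups: 5.86, 15.4 and 7.41 and 4.35, 3.63 and 1.76 CPM in the NTG libraries. In the transgenic libraries they were at 0.512 to 3.48 and 0.0460 to 0.935 CPM, with log2 fold changes of -2.76 ± 0.4 and -2.74 ± 0.54. For slc27a1b the value was -2.14 without NTG replicate 3. The dehydrogenase gene acadsb, for branched short-chain acyl-CoA, fell from 106, 106 and 100.4 CPM to 42.5 to 76.8 CPM (-0.9 ± 0.15, adjusted p = 0.00231). The kinase gene pdk2a, whose product switches off pyruvate dehydrogenase and spares glucose, was at 707, 275 and 241 CPM in NTG and 25.1 to 255 CPM in the transgenic libraries (-2.14 ± 0.36). The groups did not overlap in acadsb and overlapped in pdk2a. The genes etfb, crata, acsf2 and acsl1b were the other members that fell. In glycolysis hk2, for a hexokinase, rose from 6.19, 2.84 and 2.85 CPM to 5.4 to 22.6 CPM (2.0 ± 0.35, adjusted p = 0.00301), while pfkfb4b, a regulator of phosphofructokinase, fell from 23.6, 16.9 and 33 CPM to 3.37 to 16.1 CPM (-1.8 ± 0.31). The isomerase gene gpib fell from 73.5, 76.2 and 43.7 CPM to 9.08 to 53.4 CPM (-1.72 ± 0.3), and 4 of 47 glycolysis genes fell and 1 rose in all, beside 7.33% and 5.05% of all genes.

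Of 89 nuclear genes of oxidative phosphorylation only 2 were called, both lower, beside 7.33% of all genes that fell. Yet 83 of the 89 had negative values (median -0.2, which was -0.12 at 5 months and -0.35 at 18 to 21 months). The summed level was 74141 to 80404 CPM in NTG and 50951 to 90641 CPM in the transgenic libraries, so the groups overlapped. The cytochrome oxidase subunit gene cox4i2 (29.4, 79.7 and 45.9 CPM in NTG, 7.13 to 38.2 CPM in the transgenic libraries, -1.44 ± 0.3) was not called without NTG replicate 3 (adjusted p = 0.0642), and ndufb10 of complex I (-0.6 ± 0.15) was not called without NTG replicate 2 (adjusted p = 0.0555) or 4 (adjusted p = 0.173). Without TMEM43-WT replicate 1, the library with the lowest scaling factor, 10 of the 89 fell (6.14% of all genes in that fit), and 7 without it and TMEM43-S358L replicate 3, the next lowest.

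Among transcripts of the mitochondrial genome, 7 of 22 tested rRNAs and tRNAs were called, all lower, beside 7.33% of all genes that fell. All 22 had negative values. These genes were chosen for description after their values were seen. The large ribosomal RNA mt-rnr2 was at 3847, 2759 and 1837 CPM in NTG and 547 to 2070.1 CPM (median 806) in the transgenic libraries, a log2 fold change of -1.44 ± 0.19 (adjusted p = 0.000415). Its libraries overlapped, and it also fell with age in the same fit (log2 difference -0.91, adjusted p = 0.0347). The small ribosomal RNA mt-rnr1, next to it on the same strand, had 3489, 2623 and 2026 and 1139 to 3702 CPM (-0.27 ± 0.21, adjusted p = 0.429), with overlapping groups. The libraries were made with a kit that selects polyadenylated RNA, and its part in the levels of rRNA and tRNA was not tested. The 6 tRNA genes that fell were trnF, trnV, trnL1, trnQ, trnW and trnT, between -1.82 and -0.86.

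Of 45 antioxidant genes 6 fell and 2 rose, beside 7.33% and 5.05% of all genes. The glutathione transferase gene gstp1, an abundant enzyme of detoxification, was at 542, 489 and 482 CPM in NTG and 149.8 to 354 CPM (median 194) in the transgenic libraries, -1.18 ± 0.15 on the log2 scale (adjusted p = 0.000365). Its values by line, all against the same NTG libraries, were -1.21 (TMEM43-WT), -1.31 (TMEM43-P111L) and -1.01 (TMEM43-S358L). The quinone reductase gene nqo1 fell from 15, 13.1 and 6.45 CPM to 1.91 to 4.83 CPM (-1.52 ± 0.22). Both genes showed no overlap, and they were the only 2 of the 6 that did, beside 582 of all 1279 genes that fell. The others that fell were gstt1b, mgst3b, keap1b and prdx6, and gstm.3 and txnrd1 rose. Without NTG replicate 3, 2 of these genes fell and none rose, with 3.94% and 2.21% of all genes in that fit. Without NTG replicate 4 or TMEM43-P111L replicate 2, 3 fell, with 4.38% and 5.47% of all genes in those fits.

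**Figure D4:**
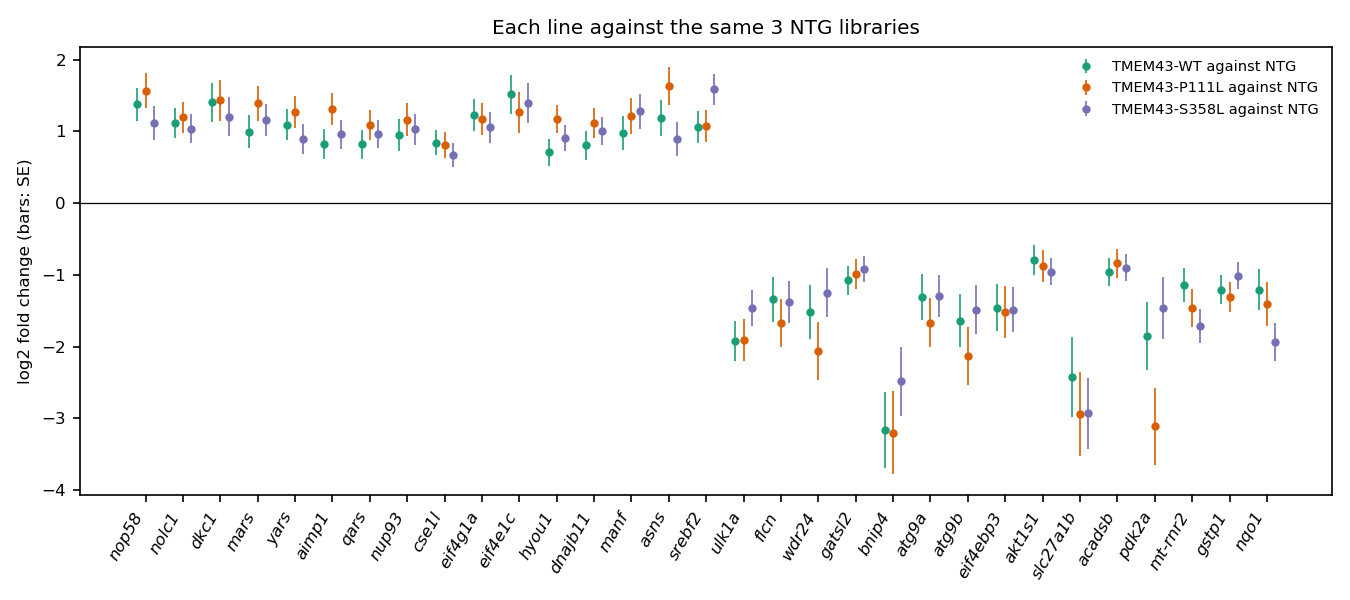
Log2 fold change of each line against the same 3 NTG libraries, with standard errors, for 31 genes of protein synthesis, nuclear transport, protein folding, mTORC1 signalling, autophagy and metabolism. The widest spread is in pdk2a, from -3.11 in TMEM43-P111L to -1.46 in TMEM43-S358L.

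Of 43 sarcomere and Z-disc genes 4 rose and 2 fell, beside 5.05% and 7.33% of all genes. Without NTG replicate 3, 1 rose (2.21% of all genes in that fit). Besides synpo2la, the atrial myosin gene myh6 was higher, with 18.5, 12.3 and 9.38 CPM in NTG and 11.2 to 82.7 CPM in the transgenic libraries (1.68 ± 0.45, adjusted p = 0.0300), and tnnc1b and ankrd1a were the others. The call of myh6 was lost without NTG replicate 3 (adjusted p = 0.111) or 4 (adjusted p = 0.149), and narrowly without TMEM43-P111L replicate 2 (adjusted p = 0.0563) or TMEM43-WT replicate 1 (adjusted p = 0.0545). It was the only one of 8 atrial markers called. The mechanical stress gene ankrd1a (0.137, 0.326 and 0.963 CPM in NTG, 0.0897 to 6.91 CPM in the transgenic libraries, 2.24 ± 0.67) kept its call in only 4 of 14 fits with 1 library left out, with adjusted p between 0.0510 and 0.124 in the others, and its log2 fold change was 2.89 without NTG replicate 4. The Z-disc gene myoz2a, for a calcineurin-binding protein, fell (log2 fold change -1.96 ± 0.26, adjusted p = 0.000482). The lines differed in it (adjusted p = 0.00282): 73.9, 33.7, 30.2 and 49.8 CPM in TMEM43-WT, 25.4, 13.6 and 4.71 CPM in TMEM43-P111L and 17.9, 12.1, 15.9 and 8.61 CPM in TMEM43-S358L, against 138, 68.8 and 66 CPM in NTG. The myosin methyltransferase gene smyd1a had 3.48, 4.19 and 1.67 and 0.260 to 2.84 CPM (-1.93 ± 0.44) and was not called without NTG replicate 3 (adjusted p = 0.0507).

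Of 30 calcium handling genes 1 rose and 3 fell, beside 5.05% and 7.33% of all genes. Without NTG replicate 4 none fell (4.38% of all genes in that fit), and without NTG replicate 2 1 fell (5.29%). The calcium pump gene atp2a2b, a second copy beside the main cardiac pump, rose from 45.6, 16.1 and 30.9 CPM to 46.9 to 109.5 CPM (median 95.2), by 1.48 ± 0.29 (adjusted p = 0.00515), and the groups did not overlap. The histidine-rich calcium-binding protein gene hrc (247, 165 and 195 CPM in NTG, 77 to 229 CPM in the transgenic libraries, -0.78 ± 0.18) was not called without NTG replicate 2 (adjusted p = 0.0577) or 4 (adjusted p = 0.118). The calcium release channel gene itpr2 fell from 41.6, 42.6 and 42.3 CPM to 13.4 to 31.8 CPM (-0.83 ± 0.22), but without NTG replicate 4 its log2 fold change was -0.51 and it was not called (adjusted p = 0.278). The calsequestrin gene casq1b, the remaining one, was not called without any one of the NTG libraries or without TMEM43-P111L replicate 2.

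Genes of desmosomes and the intercalated disc, the junctions affected in arrhythmogenic cardiomyopathy, had a positive median of 0.31. Of 27, 2 rose and 1 fell, beside 5.05% and 7.33% of all genes. The plakophilin gene pkp1b had 10 reads in all NTG libraries and 246 in the transgenic libraries, that is 0.137, 0.0466 and 0.251 against 0.0448 to 2.02 CPM, and the p120 catenin gene ctnnd1 was at 41.8, 27.2 and 35.2 and 35.1 to 64.2 CPM (0.59 ± 0.18). The alpha catenin gene ctnna2 fell from 1.65, 4.01 and 2.34 CPM to 0.0866 to 1.79 CPM (-1.94 ± 0.48). None of the 3 calls was stable: all were lost without NTG replicate 3 (adjusted p = 0.107, 0.175 and 0.0975 in that order) and without NTG replicate 4, pkp1b also without NTG replicate 2 or TMEM43-P111L replicate 2, and ctnnd1 without any of 8 transgenic libraries.

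Markers of other cells were examined in the same way, since in pooled tissue fewer cells of a type and less RNA per cell cannot be told apart. None of 22 tested erythrocyte markers was called, and none of 49 cell cycle genes. For the lists in this paragraph, the shares over all tested genes were 5.05% higher and 7.33% lower. Of 32 leukocyte markers 2 rose and 1, cpa5, fell; without TMEM43-P111L replicate 2, 8 rose (3.71% of all genes in that fit), and cpa5 lost its call in 9 of 14 fits with 1 library left out. The list had a median of 0.54 and a summed level of 549 to 734 CPM in NTG and 565 to 1282 CPM in the transgenic libraries. The pan-leukocyte gene ptprc (CD45) was at 6.09, 5.31 and 7.79 CPM in NTG and 9.72 to 20.8 CPM (median 12.6) in the transgenic libraries (1.05 ± 0.2, adjusted p = 0.00405), and the granulin gene grna, active in macrophages, at 8.8, 9.04 and 13.1 and 13.1 to 35.8 CPM (1.04 ± 0.21). Of 28 epicardium and fibroblast markers 1 was called, tcf21, a transcription factor of both, which rose from 13.8, 16 and 14 CPM to 27.7 to 45.8 CPM (1.25 ± 0.18, adjusted p = 0.000947) without overlap. The matrix proteoglycan gene vcanb rose by 1.22 ± 0.22 from 5.54, 7.55 and 7.99 CPM to 9.67 to 27.8 CPM, and 3 of 69 matrix genes rose in all. The smooth muscle gene cnn1b (0.82 ± 0.18) and the endothelial regulator gene id2b (0.86 ± 0.19) were each the only call of their list, of 15 and 34 tested markers, and neither was called without NTG replicate 3 (adjusted p = 0.0612 and 0.0599).

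Fast skeletal muscle markers, some of which the ventricle also expresses, had 4 of 27 lower and none higher, beside 7.33% and 5.05% of all genes. The median was -0.13, with 12 positive and 15 negative values. Those that fell were ckmb, casq1b and the parvalbumin genes pvalb3 and pvalb2, for calcium buffers of fast fibres. Without NTG replicate 4, 2 of the markers were lower (4.38% of all genes in that fit). The values of pvalb3 were 7.47, 16.6 and 9.33 CPM in NTG, 4.43, 2.07, 1.61 and 1.72 CPM in TMEM43-WT, 0.278, 0.246 and 0.0866 CPM in TMEM43-P111L and 16.5, 10.8, 9.59 and 2.45 CPM in TMEM43-S358L. The values were thus lowest in TMEM43-P111L, and the test among lines called a difference (adjusted p = 0.000595). In TMEM43-S358L all libraries but the lowest lay within the NTG range, so the mean change does not describe that line. Levels of pvalb2 were 2.43, 5.08 and 0.712 CPM in NTG and 0 to 2.47 CPM in the transgenic libraries (-2.69 ± 0.59), and its call was lost without NTG replicate 3 (adjusted p = 0.0519) or 4 (adjusted p = 0.0560). The summed level of the 27 markers overlapped between the groups, with 17864 to 24787 CPM in NTG and 14689 to 34136 CPM in the transgenic libraries. The part of other tissue in these values was not tested.

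The finTRIM, NLR and GIMAP genes are immune families that vary between zebrafish strains. Of 62 tested genes of the finTRIM, NLR, GIMAP and related families, out of 151 in the table, 10 fell and 1, ftr06, rose, beside 7.33% and 5.05% of all genes. Their median was -0.35; it was -0.51 for TMEM43-WT, -0.04 for TMEM43-P111L and -0.38 for TMEM43-S358L, and -0.68 within 5 months but 0.06 within 18 to 21 months. Several members were close to absent from the transgenic libraries. The TRIM gene trim35-7 (chromosome 3, 5420406 to 5433392) had 132 reads in the 3 NTG libraries (2.2, 1.86 and 1.84 CPM) and 17 in the 11 transgenic libraries, 5 of which had none; the ratio per read sequenced was 29.8, with an exact interval of 17.9 to 52.8 for counting error. The finTRIM gene ftr80 had 98 and 22 reads (ratio 17.1, 10.7 to 28.6), and dicp1.5-6, of a family of diverse immunoglobulin domain proteins, 190 and 18 (ratio 40.6, 24.99 to 69.9). In any transgenic library trim35-7, ftr80 and dicp1.5-6 had at most 6, 6 and 4 reads. They passed the filter on low counts through NTG alone, so a call could only be a decrease. They are counted among the 10 that fell. Of 34 MHC and antigen processing genes 6 fell and none rose, beside 7.33% and 5.05% of all genes. Without NTG replicate 3 or without TMEM43-P111L replicate 4, 3 fell (3.94% and 6.4% of all genes in those fits), with 1 rising in the former. Without TMEM43-P111L replicate 2, 4 fell and 2 rose (5.47% and 3.71% of all genes). The class I transactivator gene nlrc5 was at 13.1, 15 and 9.21 CPM in NTG and 2.46 to 6.87 CPM in the transgenic libraries (-1.61 ± 0.25, adjusted p = 0.00143). The class I genes mhc1zja (2.34, 3.68 and 2.26 CPM in NTG, 0.0921 to 1.55 CPM in the transgenic libraries) and mhc1zda (19.4, 43.4 and 31.6 and 7.9 to 22.3 CPM) fell, with log2 fold changes of -2.07 ± 0.44 and -1.16 ± 0.24; the call of mhc1zda was lost without NTG replicate 3 (adjusted p = 0.0587). Reads of these families can be split between copies or lost to sequence differences from the reference, and how far this shaped the values was not tested.

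The genes described next were present in one group only, meaning at most 3 reads in each library of one group and at least 1 CPM in each library of the other. Their ratios and intervals use the same reads that chose the genes, so a distance from 1 was part of the rule. In the transgenic libraries alone there was 1 such gene, LOC100006875 (chromosome 22, 7625592 to 7651851), at 1.56 to 4.23 CPM, with 678 reads there and 7 in NTG (ratio 25.2, exact interval 12.2 to 62.9). In NTG alone there were 3. The galectin gene lgals1l1 (chromosome 3, 28939759 to 28946758) was at 3.21, 3.49 and 2.85 CPM in NTG, 213 reads, with 9 reads in all transgenic libraries (ratio 91, 47 to 202). LOC110437775 (chromosome 6, 344329 to 350986) had 209 and 15 reads (ratio 53.6, 31.7 to 97.4) and LOC108190486, a long non-coding RNA gene (chromosome 6, 18456712 to 18457580), 186 and 6 reads (ratio 119, 53.7 to 329).

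Calls were spread over all chromosomes, with a few denser stretches. On the 25 chromosomes the share called ran from 9.76% on chromosome 25 to 19.3% (184 of 952 genes) on chromosome 3. In 274 windows of 5 Mb with at least 20 tested genes the median share was 11.6% (quartiles 8.8% and 15.8%), and 2 windows had no call. The highest share was in the first 5 Mb of chromosome 3, with 31 of 89 genes called (34.8%), 23 higher and 8 lower. In 18 of the 31 called genes the groups did not overlap, beside 1045 of all 2159 called genes (5.99% of those tested). The test among lines called 2 genes there. Without this window 17.7% of the genes on chromosome 3 were called. The next highest were the window from 45000001 to 50000000 on chromosome 4, with 7 of 22 genes (31.8%), and that from 35000001 to 40000000 on chromosome 24, with 26 of 91 (28.6%). In the window on chromosome 4 the 4 genes with the smallest p, zgc:113096, si:dkey-26m3.1, LOC110439500 and znf1040, each lost the call without at least 2 of the NTG libraries.

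Within the window on chromosome 3 the long non-coding RNA gene zgc:194659 (472181 to 474964) was at 25.5, 20.2 and 9.63 CPM in NTG, where it had 1220 reads, and had no read in 10 of 11 transgenic libraries and 7 reads in the other, TMEM43-P111L replicate 2. The ratio was 670 with an exact interval of 324 to 1670. Its neighbour zgc:172253 (1030455 to 1036549) changed the other way, with 8 reads in NTG and 791 in the transgenic libraries, at 0.941 to 7.23 CPM (ratio 25.7, 12.99 to 59.8). The genes srebf2, dicp1.5-6 and mhc1zja lie in the same window, and vmo1a and trim35-7 just beyond it. On chromosome 24, fam234a (39616157 to 39637469) fell from 30.7, 54.1 and 21.5 CPM to 2.84 to 9.53 CPM (-2.61 ± 0.28, adjusted p = 6.93e-05), klhl14 from 107 reads in NTG to 18 in the transgenic libraries (ratio 22.8, 13.8 to 40.02). In the same stretch zgc:154125 rose from 0.412, 1.21 and 1.67 CPM to 3.09 to 9.44 CPM (2.3 ± 0.34) and si:dkey-224b4.5 from 4.54, 1.96 and 9.67 CPM to 15.6 to 32.1 CPM (2.2 ± 0.37, and 2.99 without NTG replicate 4). The mTORC1 regulator gene wdr24 is also located there. The genotype of the fish at these places was not tested, and descent and transgene cannot be told apart there. With at most 7 and 4 reads in any transgenic library, zgc:194659 and klhl14 passed the filter through NTG alone. With at most 6 reads in any NTG library, zgc:172253 passed it through the transgenic libraries alone. The direction of these 3 calls was thereby fixed.

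**Figure D5:**
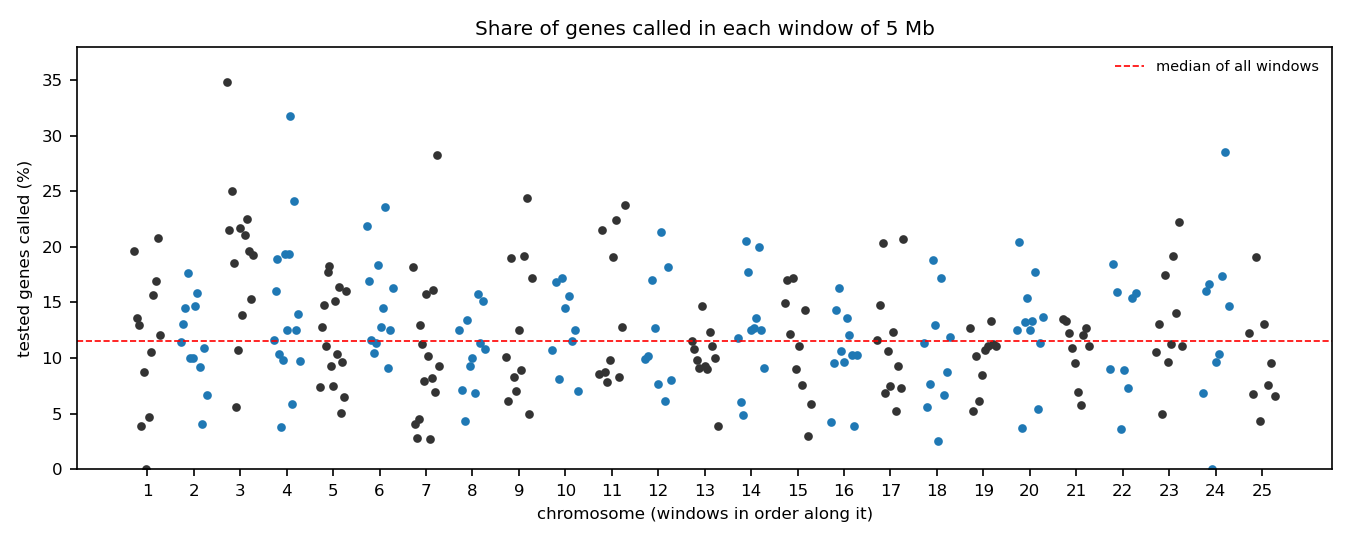
Percentage of tested genes called in each of 274 windows of 5 Mb, by chromosome, with windows in order along each chromosome. The dashed line is the median window (11.6%); the first window of chromosome 3 (34.8%) and windows on chromosomes 4 and 24 are highest.

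Some genes were called for the common change and yet differed among the lines. The phosphatase gene inpp4aa, which acts on membrane phosphoinositides, was at 22.6, 31.8 and 18.4 CPM in NTG, 22.1, 24.9, 27.3 and 26 CPM in TMEM43-WT, 3.81, 2.61 and 3.52 CPM in TMEM43-P111L and 18.3, 15.9, 18.5 and 10.9 CPM in TMEM43-S358L (adjusted p = 6.49e-05 among lines). Its mean change of -1.05 ± 0.17 describes no line well, since TMEM43-WT lay within the NTG range and TMEM43-P111L far below it. In adcy7, for an adenylate cyclase that makes cyclic AMP, the log2 fold changes were -6.15 (TMEM43-WT), -1.32 (TMEM43-P111L) and -1.19 (TMEM43-S358L) (adjusted p = 0.000567 among lines). The values were 17.5, 14.7 and 16.2 CPM in NTG and 0.0568, 0.235, 0.0921 and 0.419 CPM in TMEM43-WT, the lowest of all groups, while in the other lines all libraries were below NTG at 10.48, 2.21 and 6.35 CPM and 7.37, 4.84, 8.07 and 8.14 CPM. For csf3a, a granulocyte growth factor gene, TMEM43-P111L stood alone, with 0.12 (TMEM43-WT), -5.19 (TMEM43-P111L) and -0.24 (TMEM43-S358L) (adjusted p = 0.00104 among lines), and the common call was lost without NTG replicate 2 (adjusted p = 0.0589) or 4 (adjusted p = 0.0642).

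The change with the transgene was compared between fish of 5 months and of 18 to 21 months by an interaction term, with 2 NTG and 5 transgenic libraries on one side and 1 and 6 on the other. The interaction was called for 1 gene (0.00573%), and 1076 genes (6.17%) had an unadjusted p under 0.05; DESeq2 called 19. The gene was zgc:174862 (chromosome 23, 43361508 to 43392931), at 0, 0 and 3.18 CPM in NTG, where only the older library had reads, and at 4.46 to 20.4 CPM (median 12.7) in all transgenic libraries. The difference in log2 fold change, older minus 5 months, was -9.35 (adjusted p = 0.0365) and rests on 1 older NTG library and on NTG libraries at 0 at 5 months, so the fitted size is no measured fold. Its common change of 3.74 ± 0.95 was not called without NTG replicate 2 (adjusted p = 0.0540) or 3 (adjusted p = 0.0660), and was 11.32 without replicate 4. Within the libraries of 5 months alone 143 genes were called and within the older ones 395, the latter against the lone NTG replicate 4, which is assumed to vary like the other groups.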

How the data were processed

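RNA of pooled ventricles was sequenced from 14 libraries with a stranded kit for polyadenylated RNA. Trimming with Cutadapt 2.5, alignment by STAR 2.7.2b to the GRCz11 build and counting by featureCounts 1.6.4 were done by the authors; the deposited values are estimated counts, fractional where reads were split, and were rounded here. The strand and multi-mapping settings of the counting are not given in the sources used here.

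Genes were filtered by edgeR's filterByExpr by genotype, scaled by TMM and tested with the quasi-likelihood test (edgeR 4.0.16, limma 3.58.1 and DESeq2 1.42.0 in R 4.3.3) with genotype and age group as factors; p-values were adjusted over all 17439 tested genes. CPM are TMM-scaled. The common change is the mean of the 3 lines minus NTG. The fit was also run on simulated counts with known changes, and the outcome is not given here. Ratios of genes near 0 are pooled reads over pooled depth with an exact (Clopper-Pearson) 95% interval.

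Members and gene lists were chosen with earlier results of these data known. Named genes are the 10 in each direction with the largest change in the line where it was smallest (mean of at least 5 CPM, no overlap, no clone name). Also named are genes present in one group only (at most 3 reads per library against at least 1 CPM), up to 4 members of each list and of the 3 densest windows of 5 Mb by p, and the 4 differing most among lines. Further list members are named without values or with the change only. Alternatives covered scaling, filters, tools, age, lines, split reads, the replicate number and each library.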

Additional observations from a re-analysis of the deposited data

Results flagged for a closer look

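The change with the transgene differed between ages for zgc:174862. The log2 fold change of the transgenic against the NTG libraries was 11.3 at 5 months, where both NTG libraries had no read, and 1.97 at 18 to 21 months, where 1 NTG library was available; the difference was -9.35 (adjusted p = 0.0365, edgeR's quasi-likelihood test).

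Single libraries stood apart from the rest of their line in 15 of 208 groups of 4 libraries examined, each named gene in TMEM43-WT and TMEM43-S358L, by the gap to the nearest library relative to the range; chance gives about 1 in 20. TMEM43-WT replicate 1, the only 5-month library of its line, was the highest TMEM43-WT library for mars (42.5 CPM), acadsb (63.5 CPM), manf (32.7 CPM), hspa4a (278 CPM), pvalb3 (4.43 CPM) and id2b (228 CPM). TMEM43-WT replicate 4 was highest for bnip4 (6.44 CPM), and TMEM43-WT replicate 6 lowest for pdk2a (68.5 CPM) and for tmem43 (10.9 CPM). In TMEM43-S358L, replicate 3 was highest for eif4e1c (80.4 CPM) and lowest for cilp (7.17 CPM) and tcf21 (27.7 CPM). Replicate 2 of that line was lowest for nolc1 (27.3 CPM) and ipo9 (20.6 CPM), and replicate 1 highest for dicp1.5-6 (0.0412 CPM). In none of these genes was the sign of the common change lost when the library was left out.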

How the results depend on the processing

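Of 106 genes described in detail 102 were called; none of these changed sign under any alternative, and 82 were called whichever library was left out. Among the 106, calls were lost for 67 within 5 months, 54 within 18 to 21 months, 21 with the replicate block, 8, 14 and 12 without NTG replicate 2, 3 or 4, 2 with limma-voom and none with DESeq2 or its size factors. The number of genes called was more variable. DESeq2 called 1408 genes as higher, 2173, 2099 and 2306 for TMEM43-WT, TMEM43-P111L and TMEM43-S358L against NTG, 949 among lines and 19 by age. With whole counts alone, 1017 genes were called (404 higher, 613 lower), with libraries of 5 months 143 (48 and 95) and with those of 18 to 21 months 395 (119 and 276); fewer genes or libraries entered these fits. Without TMEM43-WT 582 genes rose, and without TMEM43-P111L or TMEM43-S358L 806 and 847 fell. With the 2 lowest scaling factors left out, chosen after seeing the data, 1574 were called. Leaving out 1 library gave 1109 to 2292 calls (399 to 905 higher, 710 to 1387 lower), 384 to 1346 for TMEM43-WT, 217 to 1297 for TMEM43-P111L, 546 to 1440 for TMEM43-S358L, 218 to 475 among lines and 0 to 11 by age; the last could not be fitted without NTG replicate 4. Without NTG replicate 3, 966 of the 2159 genes remained. The fitted values of trim35-7, ftr80, zgc:172253, zgc:194659 and LOC110437775 moved by over 1.5 times without NTG replicate 4, and that of zgc:194659 also without TMEM43-P111L replicate 2.

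With the replicate number as a block, 659 genes were called (262 higher, 397 lower), 28, 142 and 452 for TMEM43-WT, TMEM43-P111L and TMEM43-S358L, and 37 among lines. Deviations of same-numbered libraries from the fitted group and age values correlated at -0.32 to 0.09. They were not set against those of differently numbered libraries, so this cannot decide whether a number stands for a shared batch. Few pools, and 1 older NTG library, limit the precision, and low genes are limited by depth too.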
